A study of Mus musculus with 24 samples.

Results

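Oligodendrocyte precursor genes were followed in the CA1 field of the mouse hippocampus: Pdgfra, Cspg4, Vcan, Neu4, Sox6, Olig1, Olig2, Gpr17 and Lhfpl3. The 9 genes are a list of textbook markers, looked up by name in the deposited tables. Of these, 8 were found, among 38355 genes per count table, and all 8 passed the filter on low counts. Lhfpl3 was matched to no entry by name or identifier and is not analysed here. The levels come from 24 RNA-seq libraries of polyadenylated RNA from C57BL/6J mice aged 3 to 5 months. All mice carried floxed Kat2a on both alleles (Kat2afl/fl), the gene of a lysine acetyltransferase that serves as a coactivator of transcription. Conditional knockout (cKO) mice carried in addition CamKII_alpha-cre, a Cre recombinase under a promoter that in the forebrain is active in excitatory neurons and not in glia. The groups are 7 cKO novelty libraries, 6 cKO naive libraries, 5 control novelty libraries and 6 control naive libraries, where novelty stands for 15 min of exposure to novelty before the tissue was taken and naive for none. A Cre control without the floxed gene is not among the samples used here. The design asks what the loss of Kat2a and a brief experience do to gene expression, here in genes that mark a glial cell type.

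Oligodendrocyte precursor cells are the dividing glia that remain spread through the adult brain, grey matter included, and give rise to myelinating oligodendrocytes. Platelet-derived growth factor A, made by neurons and astrocytes, acts on their receptor Pdgfra and keeps them dividing. The transcription factors Olig1, Olig2 and Sox10 set the lineage, while Sox5 and Sox6 hold cells in the precursor state. As cells leave that state, Pdgfra and Cspg4 are shut off, Gpr17 is raised for a time, and myelin genes such as Mbp follow. Several markers are shared with other cells: Olig1 and Olig2 stay on in mature oligodendrocytes, Cspg4 (NG2) is also made by pericytes, Pdgfra by fibroblasts of the meninges and Sox6 by interneurons.

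Assigned reads per library, in M (mega) reads, numbered 13 to 21.2 in cKO mice after novelty, 19.6 to 24.5 in naive cKO mice, 13.9 to 35.8 in controls after novelty and 10.7 to 23.4 in naive controls. Pdgfra had 865 to 2593 reads per library and Neu4, the member with the fewest, 101 to 388. Kat2a averaged 35.2 ± 2.26 CPM (counts scaled to a common library size, here after TMM) in cKO novelty, 36.2 ± 2.38 in cKO naive, 60.2 ± 3.71 in control novelty and 63.4 ± 3.99 in control naive libraries (SD), and the highest cKO library (39.2 CPM) was below the lowest control library (55.8 CPM). Libraries are the replicates. The labels do not say that each came from a separate animal, and p-values measure the spread between libraries. In bulk tissue, fewer cells of a type and less RNA per cell cannot be told apart.

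Per kilobase of exon, Olig1 was the most abundant member and Cspg4 the least. Levels in control naive libraries were 24.9 ± 3.78 CPM per kilobase for Olig1, 10.8 ± 1.14 for Gpr17, 7.71 ± 0.43 for Pdgfra, 6.96 ± 0.66 for Olig2, 2.21 ± 0.16 for Neu4, 2.01 ± 0.04 for Sox6, 1.72 ± 0.23 for Vcan and 1.59 ± 0.22 for Cspg4 (SD, n = 6). The ranges of Pdgfra and Olig2 overlapped, as did those of Sox6 and Vcan and those of Vcan and Cspg4. The other neighbours in this order did not overlap. Among 16532 genes with a length, Olig1 stood at percentile 87.0 and Cspg4 at percentile 28.0.

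Olig2 and Olig1 are neighbours, at chr16:91225550-91228677 and chr16:91269769-91271939 on the plus strand of GRCm38 in the deposited tables, with 41092 bases between them. Pdgfra lies at chr5:75152291-75198204 and Cspg4 at chr9:56865104-56899870, both on the plus strand. Neu4 is at chr1:94020493-94028326 on the plus strand. Sox6 is at chr7:115471344-116038744 and Vcan at chr13:89655312-89742509, both on the minus strand. Gpr17, on the minus strand of its chromosome, lies opposite Lims2, with which it shares 188 bases of exon in GENCODE M21 (3.62% of its exons). Olig1 shares 157 bases (7.26%) with the noncoding gene Gm15966 on the other strand and Pdgfra 456 bases (4.55%) with Gm42802. Strand is not kept by the library kit used, and over these stretches the source of a read is uncertain.

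The promoters of Olig2, which fell in cKO mice, and of Pdgfra, which did not pass the test, are shown to set the lineage factor beside the growth factor receptor. They run from 250 bases before to 50 bases after the annotated start, 5′ to 3′, from RefSeq on GRCm38.p6, at chr16:91225300-91225599 and chr5:75152001-75152300, both on the plus strand. The table held promoters of 7 of the 9 genes. Capitals mark the motifs searched on both strands that were found here: the CCAAT box (CCAAT, or ATTGG on the other strand), the TATA box (TATAAA) and the E-box (CANNTG), the kind of site that Olig proteins and other basic helix-loop-helix factors bind.
Olig2: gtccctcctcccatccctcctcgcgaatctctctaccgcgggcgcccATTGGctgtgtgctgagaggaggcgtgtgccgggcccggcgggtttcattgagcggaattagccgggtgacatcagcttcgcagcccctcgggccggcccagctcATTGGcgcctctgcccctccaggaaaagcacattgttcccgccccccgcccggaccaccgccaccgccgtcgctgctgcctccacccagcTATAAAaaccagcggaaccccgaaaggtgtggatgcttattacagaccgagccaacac
Pdgfra: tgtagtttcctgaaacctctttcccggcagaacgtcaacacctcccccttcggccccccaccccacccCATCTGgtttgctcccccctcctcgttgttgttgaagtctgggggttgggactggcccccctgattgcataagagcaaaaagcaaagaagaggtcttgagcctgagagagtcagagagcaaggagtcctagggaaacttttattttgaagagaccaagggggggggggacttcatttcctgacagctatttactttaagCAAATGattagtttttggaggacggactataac
The Olig2 promoter has 65.0% G and C and 25 CpG pairs, against 51.0% and 5 CpG pairs in that of Pdgfra and a median of 52.7% over 32851 promoters. It holds CCAAT boxes 203 and 98 bases before the start and a TATA box 8 bases before it, and no E-box. The Pdgfra promoter holds an E-box 182 bases before and another 17 bases after the start, and neither of the other motifs. Among all promoters of this length, 37.4% hold a CCAAT box, 13.6% a TATA box and 72.3% an E-box. The motifs do not overlap in these stretches.

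Averaged over both exposures, Olig2 and Gpr17 fell in cKO mice, by 13.4% and 12.3%, and the other 6 members did not pass the test. The share of members that passed, 2 of 8, stands beside 12.1% of 16744 genes tested that passed in either direction and 6.01% that passed as lower (edgeR quasi-likelihood test, Benjamini-Hochberg over all genes, adjusted p below 0.05), and nothing particular to the list is read from this count. All 8 members had a fold change below 0, with a median of -0.124 on the log2 scale, against 46.7% of all genes below 0 and a median of 0.009. When each exposure was tested alone, no member passed between the genotypes, whether after novelty, where 4.53% of genes did, or in naive mice, where 0.801% did. By DESeq2 the counts of members were 0 and 1, where 7.22% and 2.84% of genes passed. By limma-voom they were 0 and 0, where 4.86% and 0.85% did. At an unadjusted p below 0.05, edgeR had 4 of 8 members after novelty, beside 3353 of 16188 genes tested. In naive mice it had 2 of 8, beside 2220 of 16360 genes. The CPM ranges of cKO and control libraries overlapped for all 8 members in both exposures, where 3.08% of genes after novelty and 1.88% in naive mice had ranges apart.

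**Figure D1:**
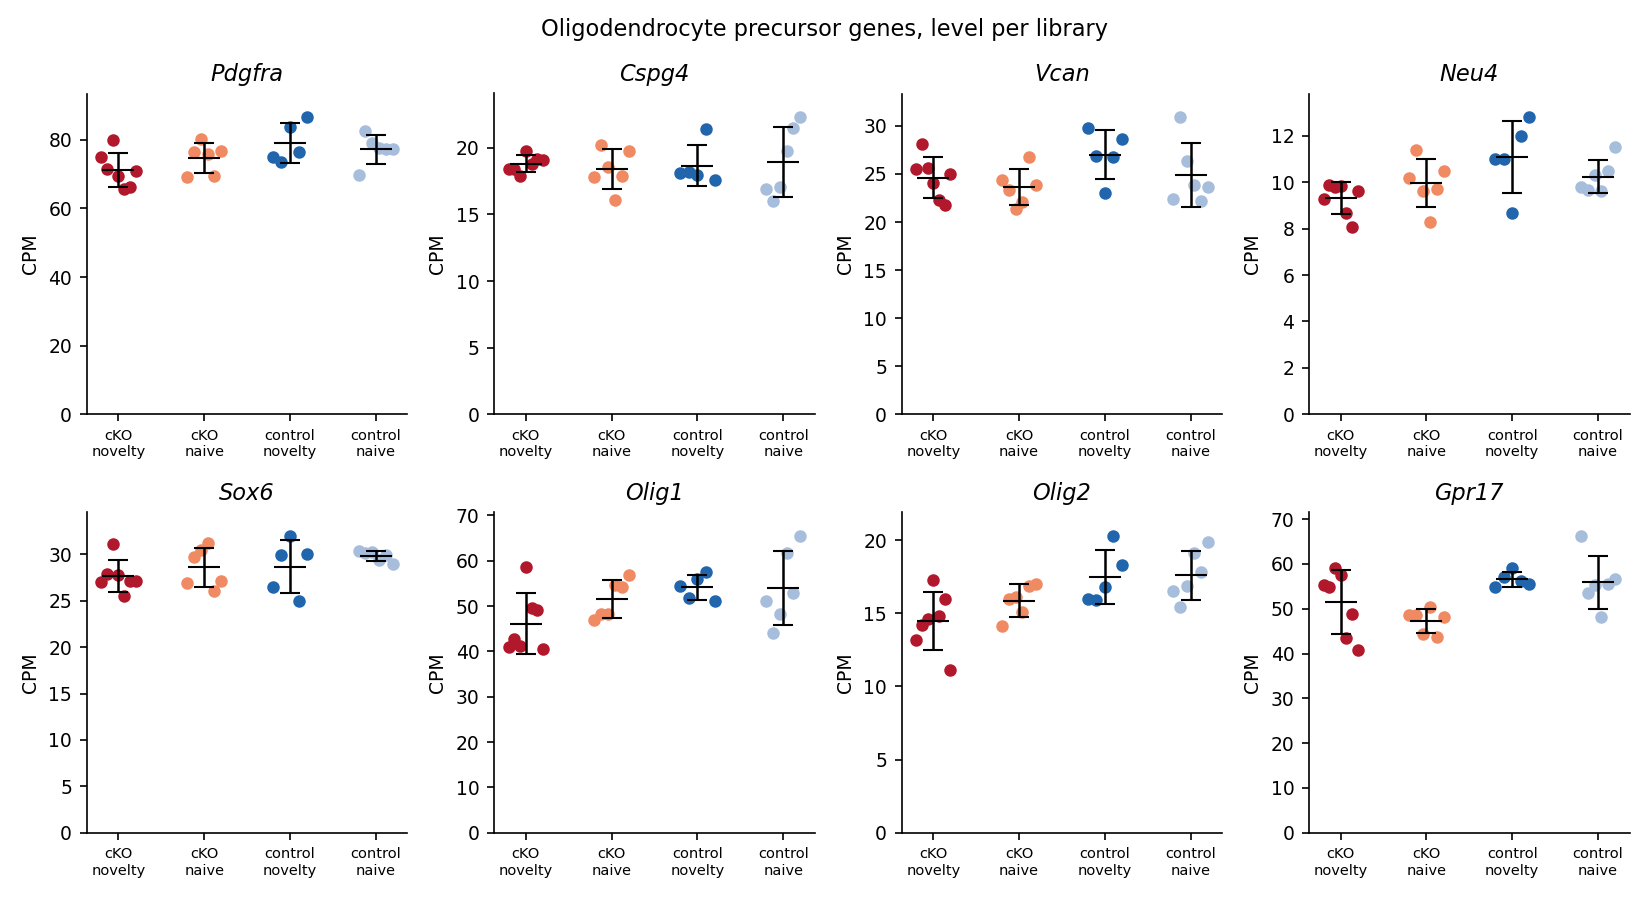
CPM per library (points) of the 8 measured genes in cKO novelty (n = 7), cKO naive (n = 6), control novelty (n = 5) and control naive (n = 6) mice, with the mean and SD as bars; each vertical axis starts at 0. Groups overlap for every gene, and the lowest Olig2 value, 11.1 CPM, is a cKO novelty library.

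Olig2, a basic helix-loop-helix factor of the lineage, had 11.1 to 17.3 CPM in cKO novelty libraries with a median of 14.6. In cKO naive libraries it had 14.1 to 17.0 CPM with a median of 16.0. Control novelty libraries had 16.0, 15.9, 16.8, 20.3 and 18.3 CPM, and control naive libraries 15.4 to 19.9 CPM with a median of 17.4. Of 13 cKO libraries, 11 were below the median of the 11 control libraries and 7 were below all of them. The log2 fold change averaged over exposures was -0.21 (SE 0.06, edgeR adjusted p = 0.0244). Within single exposures it was -0.26 after novelty (adjusted p = 0.126) and -0.16 in naive mice (adjusted p = 0.358).

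Gpr17, an orphan receptor of precursors that have begun to differentiate, had 40.9 to 59.2 CPM in cKO novelty libraries with a median of 54.9, and 43.8 to 50.5 CPM in cKO naive libraries with a median of 48.3. Control novelty libraries had 54.8, 57.2, 59.0, 56.2 and 55.6 CPM, and control naive libraries 48.1 to 66.3 CPM with a median of 55.5. In naive mice all 6 cKO libraries were below the control median and 5 of 6 control libraries were above every cKO library, while after novelty 3 of 7 cKO libraries were below all controls and 1 was above them. Averaged over exposures, the log2 fold change was -0.19 (SE 0.05, adjusted p = 0.0233 by edgeR). Within naive mice it was -0.24 with an adjusted p of 0.0969 by edgeR and 0.029 by DESeq2, and after novelty -0.14 (adjusted p = 0.356). Lims2, on the opposite strand, had 4.63 to 8.18 CPM over all libraries and a log2 fold change of -0.18 that missed the threshold (adjusted p = 0.0992).

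Olig1, the partner gene of Olig2 that acts in maturation and repair of myelin, averaged 46.1 ± 6.75 CPM in cKO novelty, 51.5 ± 4.18 in cKO naive, 54.1 ± 2.7 in control novelty and 53.9 ± 8.17 in control naive libraries. After novelty, 6 of 7 cKO libraries were below all 5 controls and the remaining one, library 4 at 58.7 CPM, was above them. The log2 fold change was -0.23 after novelty (adjusted p = 0.142) and -0.15 averaged over exposures (SE 0.06, adjusted p = 0.139). Without that library it passed in both, at -0.29 (adjusted p = 0.0121) and -0.19 (adjusted p = 0.037). It also passed on average when the fit took into account whether a library is numbered 1 to 3 or 4 and above, at -0.17 (adjusted p = 0.024). The averaged comparison was run in 31 settings (the fit as reported, 6 alternatives and 24 fits without 1 library). Olig1 passed in 3 of them, with adjusted p-values of 0.0216 to 0.223.

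Pdgfra, the receptor that platelet-derived growth factor A acts on, averaged 71.3 ± 4.95 CPM in cKO novelty, 74.7 ± 4.44 in cKO naive, 79.1 ± 5.69 in control novelty and 77.3 ± 4.27 in control naive libraries. Of 13 cKO libraries, 11 were below the control median and 5 below all controls. The log2 fold change averaged over exposures was -0.10 (SE 0.04, edgeR adjusted p = 0.0835). It passed without control naive library 1 (-0.12, adjusted p = 0.0457) and without cKO novelty library 3 (-0.11, adjusted p = 0.0354). These were the only 2 of 31 settings in which Pdgfra passed, and its adjusted p ran up to 0.158. Neu4, a sialidase that trims sialic acid from glycoproteins and glycolipids, averaged 9.31 ± 0.69 CPM in cKO novelty and 11.1 ± 1.58 in control novelty libraries, with 4 of 5 controls above every cKO library. Its averaged log2 fold change was -0.15 (adjusted p = 0.115), and without control novelty library 3 it was -0.19 (adjusted p = 0.03). Neu4 passed in that 1 setting of 31, and its adjusted p ran up to 0.213.

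The remaining members are Vcan, Sox6 and Cspg4. Vcan, a large chondroitin sulfate proteoglycan of the matrix, had an averaged log2 fold change of -0.10 (95% interval -0.21 to 0.00, adjusted p = 0.238). Sox6 had -0.06 (95% interval -0.14 to 0.02, adjusted p = 0.376), with 27.7 ± 1.72 CPM in cKO novelty, 28.6 ± 2.14 in cKO naive, 28.7 ± 2.85 in control novelty and 29.9 ± 0.56 in control naive libraries. Cspg4, the NG2 proteoglycan that spans the membrane of these cells, had -0.01 (95% interval -0.12 to 0.09, adjusted p = 0.894), and 4 of 13 cKO libraries were below the control median. For Cspg4 the interval ends short of the fold changes estimated for Olig2 and Gpr17. Differences between members were not tested.

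**Figure D2:**
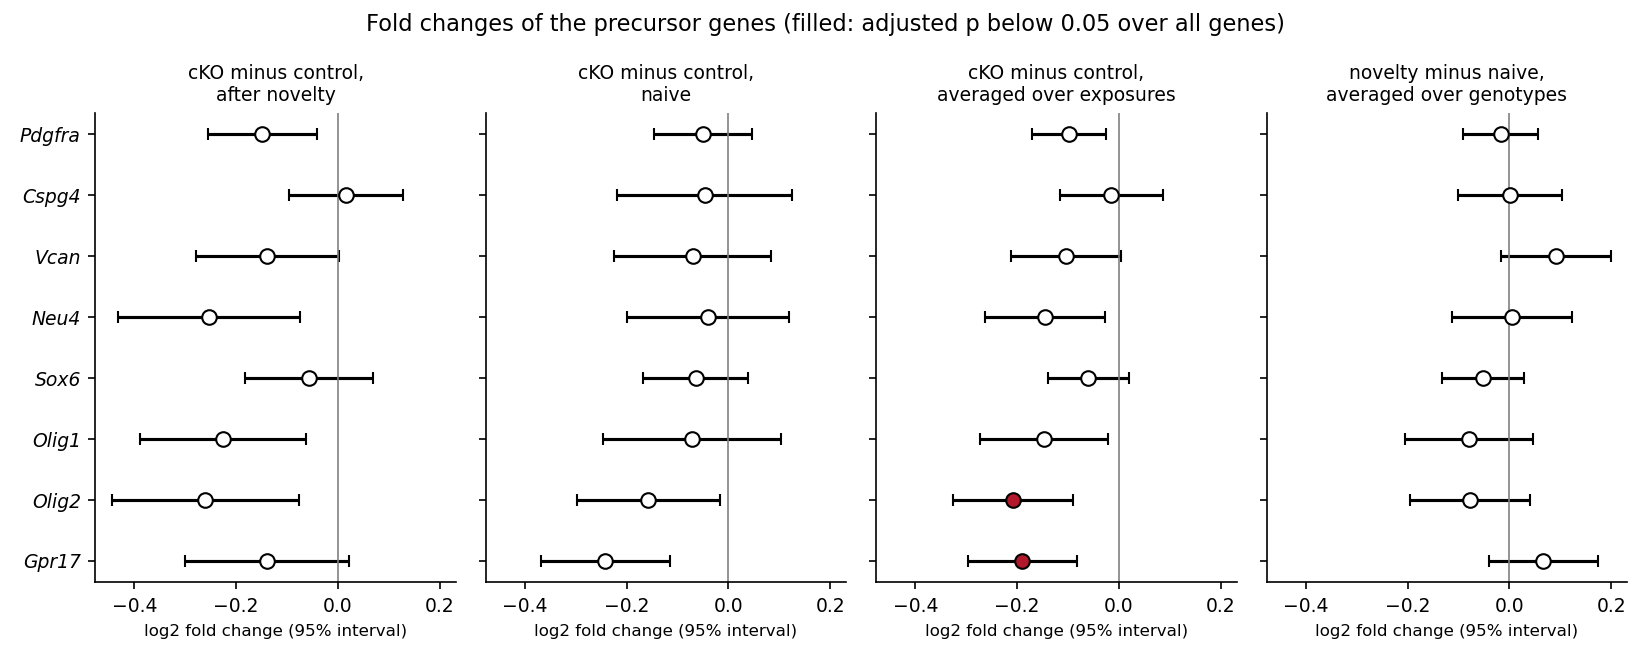
Log2 fold change (point) with its 95% interval (bar) of each gene for cKO minus control after novelty, in naive mice and averaged over exposures, and for novelty minus naive averaged over genotypes; filled points had an adjusted p below 0.05 over all genes. Only Olig2 (-0.21) and Gpr17 (-0.19) are filled, both in the averaged genotype comparison.

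Novelty was not followed by a detectable difference in any member. Of 8 members, 0 passed in cKO mice, where 2.41% of genes did, 0 in controls, where 1.22% did, and 0 averaged over genotypes, where 6.54% did. At an unadjusted p below 0.05, edgeR also had 0 members in each of these. Beside them stood 2274 of 16339 genes in cKO mice, 1778 of 16100 in controls and 2941 of 16744 averaged over genotypes. No member passed by DESeq2, where 4%, 2.34% and 7.82% of genes did in the same order. None passed by limma-voom, where 2.35%, 1.37% and 6.94% did. Ranges of novelty and naive libraries overlapped for all 8 members in both genotypes, where 1.92% of genes in cKO mice and 2.4% in controls had ranges apart. The averaged log2 fold changes of novelty over naive ran from -0.08 for Olig1 to 0.09 for Vcan, with 4 of 8 below 0. Gpr17 had 0.07 (95% interval -0.04 to 0.17) and Olig2 -0.08 (95% interval -0.20 to 0.04). For Pdgfra the 95% interval of this average was -0.09 to 0.06, and for Cspg4 it was -0.10 to 0.10, both on the log2 scale. Fos, an immediate early gene, averaged 35.9 CPM in cKO novelty, 3.49 in cKO naive, 31.3 in control novelty and 3.16 in control naive libraries.

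The response to novelty did not differ detectably between the genotypes. In the interaction of genotype and novelty, 0 of 8 members and 0% of 16744 genes passed by edgeR. At an unadjusted p below 0.05 the counts were 683 genes by edgeR, 651 by DESeq2 and 742 by limma-voom. The member with the smallest p was Neu4, at -0.21 on the log2 scale (SE 0.12, unadjusted p = 0.0862). Its group means were 9.31 in cKO novelty and 9.97 CPM in cKO naive libraries, against 11.1 in control novelty and 10.2 CPM in control naive libraries.

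The members did not vary together as a group from library to library. Over 24 libraries with group means removed, the 28 pairs of members had a median Pearson r of -0.0174, and 13 of them were positive. The strongest pair was Olig1 and Olig2, the neighbours on chromosome 16 (r = 0.756, Spearman rho = 0.732, adjusted permutation p over the 28 pairs 0.00112 and 0.00224). Without the 2 libraries farthest from the median of Olig1 r was 0.662. Pdgfra and Sox6 followed (r = 0.596, rho = 0.582, adjusted permutation p = 0.0367 and 0.0352), and Cspg4 correlated with Olig1 (r = 0.543, rho = 0.481, adjusted p = 0.0406 and 0.105) and with Olig2 (r = 0.551, rho = 0.578, adjusted p = 0.0406 and 0.0352, both by permutation). Gpr17 and Olig2, which both fell in cKO mice, had r = 0.176 and rho = -0.0704 within groups.

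**Figure D3:**
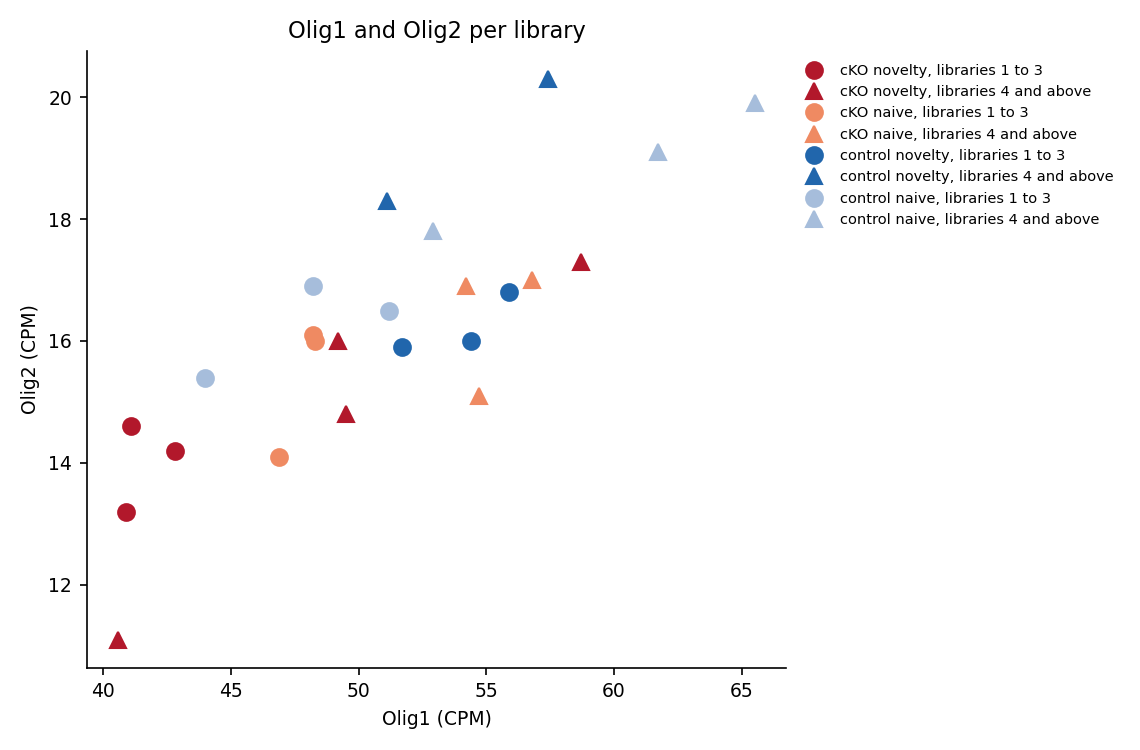
Olig2 against Olig1 in CPM, a point per library, coloured by group, with circles for libraries numbered 1 to 3 and triangles for 4 and above; the axes do not start at 0. Libraries high in Olig1 are high in Olig2, and the lowest cKO novelty library has 40.6 CPM of Olig1 and 11.1 CPM of Olig2.

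Part of this variation followed the number of a library in its title. The labels do not say what separates numbers 1 to 3 from 4 and above, and the division is taken from earlier results of these data. Levels in libraries 4 and above, less those in 1 to 3 of the same group, differed by 0.19 on the log2 scale for Olig1 and 0.15 for Olig2, in 4 of 4 groups each, at percentiles 93.4 and 89.9 of all genes. Olig1 and Olig2 have GC-rich transcripts (61.1% and 58.5% G and C), as has Cspg4 (59.2%, 0.11), and across 16532 genes this difference correlated with GC content (r = 0.432, a description across genes, which are not independent replicates). With the division removed along with the group, Olig1 and Olig2 had r = 0.844 and rho = 0.686, and r = 0.629 without the 2 farthest libraries. Pdgfra and Sox6 had r = 0.651 and rho = 0.627, and r = 0.695 without the 2 farthest. Cspg4 with Olig2 then had r = 0.408 (adjusted permutation p = 0.144) and rho = 0.551 (adjusted p = 0.0417), and so passed by rho and not by r. Cspg4 with Olig1 passed by neither (r = 0.345, rho = 0.499, adjusted permutation p = 0.249 and 0.0636). By r alone Gpr17 and Olig1 passed (r = 0.61, rho = 0.379, adjusted permutation p = 0.0193 and 0.195). Without the 2 libraries farthest from the median of Gpr17, that r was 0.223. By rho alone Cspg4 and Neu4 passed (r = 0.481, rho = 0.548, adjusted permutation p = 0.0791 and 0.0417). More means were removed here than with the group alone, and these permutation p-values are too small by more.

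The genotype difference lay on the same side in both sets of libraries for Olig2 (-0.15 in numbers 1 to 3 and -0.30 in 4 and above, differences of mean log2 CPM averaged over exposures) and for Gpr17 (-0.16 and -0.20). For Olig1 the values were -0.19 and -0.13, for Vcan -0.10 and -0.10, and for Sox6 -0.05 and -0.05. For Neu4 they were -0.004 and -0.30 and for Pdgfra -0.03 and -0.16, so that most of their averaged difference came from libraries 4 and above. Cspg4 had 0.09 and -0.13, on opposite sides. In naive mice alone, Vcan (-0.20 and 0.06), Neu4 (0.07 and -0.15) and Olig1 (0.003 and -0.11) also lay on opposite sides. Olig2, Gpr17, Pdgfra and Sox6 were below 0 in both sets in each exposure, with Gpr17 after novelty at -0.01 and -0.24.

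Lists of other genes of the lineage are read beside the 12.1% of all genes that passed between the genotypes in either direction and the 6.01% that passed as lower. Of 12 genes of mature oligodendrocytes, 9 fell in cKO mice averaged over exposures and 0 rose, with a median log2 fold change of -0.305 over the 12. Mobp fell by 0.34 on the log2 scale (edgeR adjusted p = 0.00905), Ugt8a, which makes the galactolipids of myelin, by 0.36 (adjusted p = 0.00679) and Mog by 0.31 (adjusted p = 0.0112). Of 8 measured genes of differentiating oligodendrocytes, 2 fell: Bcas1 by 0.31 (adjusted p = 0.0183) and Enpp6, a choline phosphodiesterase that marks newly formed oligodendrocytes, by 0.36 (adjusted p = 0.0356). The median of these 8 was -0.117. Of 20 other genes enriched in precursors, 0 passed in any of the 7 comparisons, and their median in this comparison was -0.022. Sox10 was at -0.13 (adjusted p = 0.217) and Ptprz1, a receptor phosphatase and the most abundant of these 20, at -0.04 (adjusted p = 0.495). When each exposure was tested alone, 0 of the 12 mature genes passed after novelty, where 4.53% of genes did. In naive mice 1 of the 12 passed, where 0.801% of genes did. Of the 8 differentiating genes 0 passed in either exposure. The difference between these lists was not tested.

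**Figure D4:**
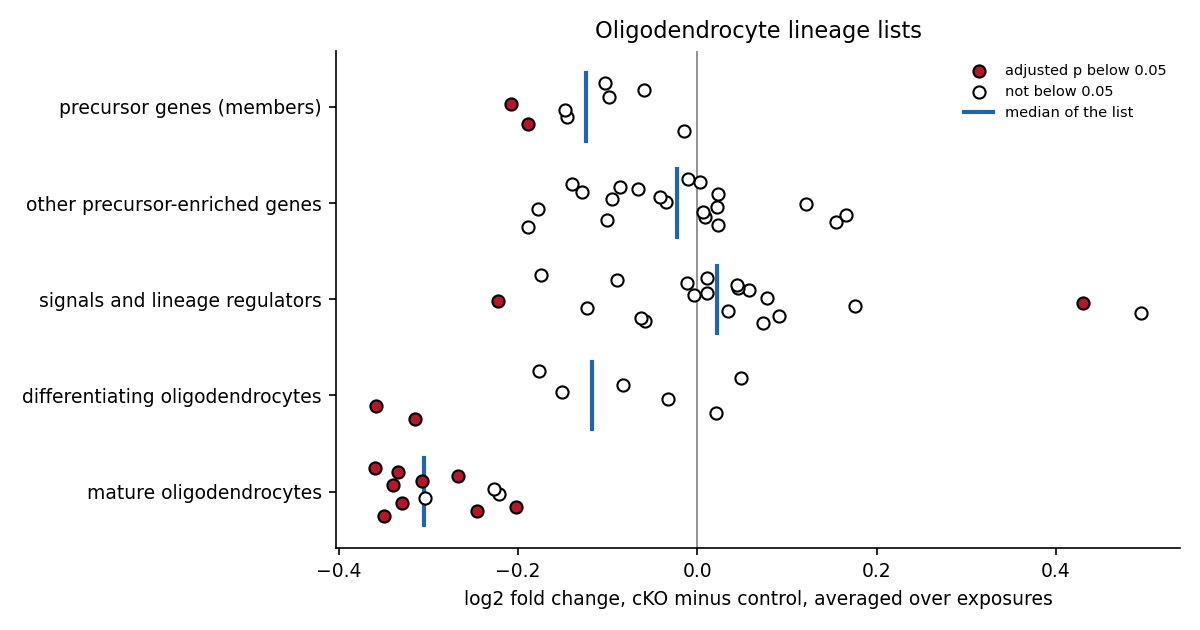
Log2 fold change of cKO minus control, averaged over exposures, for each tested gene of 5 lists of the oligodendrocyte lineage and its signals; filled points had an adjusted p below 0.05 over all genes and blue lines mark list medians. Medians were -0.124 for the members, -0.022 for other precursor-enriched genes, 0.022 for signals and lineage regulators, -0.117 for differentiating and -0.305 for mature oligodendrocytes.

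The 12 mature genes summed to 3252 to 6244 CPM in cKO novelty libraries and 4219 to 5369 CPM in cKO naive libraries, against 4708 to 5713 CPM in control novelty libraries and 5027 to 5349 CPM in control naive libraries. The sum of the 8 members, to which Pdgfra, Gpr17 and Olig1 give most, was 244 to 285 CPM in cKO novelty libraries and 258 to 280 CPM in cKO naive libraries, against 284 to 301 CPM in control novelty libraries and 282 to 306 CPM in control naive libraries. Within groups, Olig1 and Olig2 correlated with the mature sum at r = 0.531 and 0.507, with rho 0.36 and 0.277. These values rested on few libraries, since r was 0.172 and 0.006 without the 2 libraries farthest from the median of the sum. Gpr17 had r = 0.422 and rho = 0.192, and r = 0.043 without those libraries. With the division by library number removed as well, r was 0.572 for Olig1, 0.548 for Olig2 and 0.701 for Gpr17. Sox6 had r = 0.349 and rho = 0.548 (adjusted permutation p = 0.224 and 0.0356), and the other 4 members had r between -0.22 and 0.0427. Over 12 relations chosen after seeing the data, those of the 8 members with this sum and 4 with markers of other cells, adjusted permutation p for r was 0.0442 for Olig1, 0.0572 for Olig2 and 0.131 for Gpr17. All 12 relations carry the same limit of the permutations as the pairs of members. The part of mature oligodendrocytes in the lower Olig2 and Gpr17 levels was not tested.

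Other cells that share a member's marker gave these values. Pdgfra correlated within groups with the summed markers of meningeal fibroblasts (r = 0.564, rho = 0.553, adjusted permutation p = 0.0442 and 0.0356, and r = 0.473 without the 2 farthest libraries), whose sum was 102 to 169 CPM in cKO novelty libraries and 108 to 189 CPM in cKO naive libraries, against 91.1 to 172 CPM in control novelty libraries and 119 to 181 CPM in control naive libraries. Of these 8 fibroblast genes, 0 passed between the genotypes averaged over exposures, where 12.1% of all genes did. Sox6 had r = 0.002 with the interneuron markers. Of these 9 genes 3 fell in cKO mice averaged over exposures, where 6.01% of all genes did. They were Pvalb (-0.30, edgeR adjusted p = 0.00287), Gad1 (-0.13, adjusted p = 0.0299) and Gad2 (-0.11, adjusted p = 0.0491). Cspg4 had r = -0.282 (adjusted permutation p = 0.368) with the markers of pericytes and smooth muscle. Of these 9 genes 1 fell in the same comparison, Rgs5 (-0.24, edgeR adjusted p = 0.00901). The part of these other cells in the levels of Pdgfra, Sox6 and Cspg4 was not tested. Of dividing cells, Mki67 had 1.73 to 4.07 CPM and did not pass in any comparison.

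Among 20 signals and regulators that act on precursors, Pdgfa, the ligand of Pdgfra, had a genotype difference of 0.05 (adjusted p = 0.57) and a novelty difference of 0.02 (adjusted p = 0.901), both log2 and averaged. Between the genotypes, averaged over exposures, 1 rose and 1 fell, beside 6.09% of all genes that passed as higher and 6.01% as lower. Nothing particular to the list is read from this count. Hes5, a target of Notch that restrains differentiation, rose by 0.43 (adjusted p = 0.0059). Id2, an inhibitor of basic helix-loop-helix factors, fell by 0.22 (adjusted p = 0.00244). After novelty, averaged over genotypes, 3 of 20 fell and 2 rose, beside 2.02% of all genes that passed as lower and 4.52% as higher. Notch1, the receptor through which neighbouring cells hold precursors back, fell by 0.36 (adjusted p = 2.56e-06), to 22.6 ± 1.36 CPM in cKO novelty, against 29.3 ± 1.37 in cKO naive libraries, and to 22.0 ± 2.64 CPM in control novelty, against 27.7 ± 1.54 in control naive libraries. Its ligand Jag1 fell by 0.42 (adjusted p = 0.000317) and Axin2, a target of Wnt signalling, by 0.18 (adjusted p = 0.0434). Pdgfb, a further ligand of this receptor family, rose by 0.25 (adjusted p = 0.00189), as did Id4 by 0.19 (adjusted p = 0.0066). These genes are also expressed by neurons, astrocytes or vessels, so the tissue level does not say in which cells they moved.

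In the authors' deposited tables, 1 of 8 members passed between the genotypes in naive mice (Gpr17, log2 fold change -0.24, adjusted p = 0.0266), where 3.18% of listed genes did. After novelty 0 of 8 passed in the authors' deposited table, where 8.17% did, with adjusted p-values of 0.0703 for Neu4, 0.08 for Olig2, 0.0861 for Olig1 and 0.0898 for Pdgfra. In both novelty comparisons 0 of 8 passed in the authors' deposited tables, where 4.41% of listed genes did in cKO mice and 2.79% in controls.

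The genes whose pattern over the 24 libraries was most like the mean of the 8 members, with group means removed, were Lair1 (r = 0.801), Rpl31 (r = 0.779), Tceal8 (r = 0.735), Gnb2l1 (r = 0.71) and Bdh1 (r = 0.691), among 11969 genes ranked. None of these is in the lists of lineage genes. These are the highest of many correlations and are given as a description, with no p.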

How the data were processed

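Polyadenylated RNA of the dissected CA1 field was sequenced in 24 libraries made with an unstranded Illumina TruSeq kit, per the labels' protocols. The authors deposited raw read counts per Ensembl gene, whole numbers without normalization, 1 table per library. STAR 2.3.0, HTSeq, DESeq2 and GRCm38.p2 are named, without roles, per the submitters' processing notes. For 4 pairwise comparisons, run in DESeq2 according to the design text, the authors deposited a base mean (a signal), a log2 fold change with its SE, and a p-value with its adjusted p-value, as named in the file headers. They gave gene names and positions, and no per-sample column of them was left out of use.

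Library totals leave out the 5 summary entries of each table. Counts were tested with edgeR 4.0.16 in R 4.3.3 (TMM, filterByExpr at a minimum count of 10, robust glmQLFit and glmQLFTest, Benjamini-Hochberg over all genes tested). Each of the 4 pairwise comparisons used its own libraries, and 1 fit of 24 libraries gave the averages and the interaction. The procedure was tested on simulated counts. Levels are CPM after TMM, and log2 CPM with a prior count of 2 served for correlations (100000 permutations). The permutations did not allow for the means removed beforehand, so their p-values are somewhat too small. Correlations cover the 28 pairs of the 8 measured members. Exon lengths and overlaps come from GENCODE M21. Alternatives were DESeq2 1.42.0, upper-quartile scaling, no filter, limma-voom (limma 3.58.1), a replicate block, the library number as a covariate and leaving out each library.

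The members and the other gene lists were chosen with earlier results of these data known. Named genes are all members, Kat2a and up to 4 genes per other list that passed in any comparison, smallest p first, or else the list's most abundant gene. A gene that this rule names is not reported here. Fos, Hes5, Axin2, Id4, Pdgfa, Sox10 and Lims2 were named outside this rule, after their values were seen.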

Additional observations from a re-analysis of the deposited data

Results flagged for a closer look

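In 32 sets of values, 8 genes in 4 groups each, 2 held a library that stood apart from the rest of its group by Dixon's test, which by chance picks out about 5% of such sets. Cspg4 had 21.4 CPM in control novelty library 4, while the other 4 libraries of that group had 17.6 to 18.2 CPM. The gap made up 0.842 of the range, against a critical value of 0.71. Sox6 had 31.1 CPM in cKO novelty library 3, while the other 6 libraries of that group had 25.5 to 27.9 CPM, a gap of 0.571 of the range against a critical value of 0.568. The genotype differences of both genes did not pass the test with or without these libraries.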

How the results depend on the processing

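Olig2 and Gpr17 passed between the genotypes, averaged over exposures, in all 31 settings (the fit as reported, 6 alternatives and 24 fits without 1 library), with log2 fold changes of -0.24 to -0.18 and -0.21 to -0.16 and adjusted p-values of 0.004 to 0.0462 and 0.009 to 0.0414. The number of members that passed there was 2 or 3 throughout. With the replicate block it was 3, Olig1 being added (-0.15, adjusted p = 0.0216). In naive mice DESeq2 passed 1 member where edgeR passed 0, and after novelty leaving out 1 library gave 0 to 1. In the 4 other comparisons 0 passed in every setting. Pairs of members that passed by Pearson's r numbered 1 to 5 without 1 library, against 4 over all. They numbered 4 with upper-quartile scaling and 3 with the division by library number removed. No pairing of samples by number was supported, with a correlation of same-numbered deviations of -0.128 to 0.279 and 3 of 22 over 0.1. The replicate block lowered the genes that passed to 207 for novelty in cKO mice, 97 in controls, 70 for genotype in naive mice and 398 after novelty, against 393, 197, 131 and 733. DESeq2 gave 653, 377, 465 and 1168. Upper-quartile scaling lowered the share of calls that were higher after novelty from 79.9% to 67.0% in cKO mice and from 69.0% to 53.9% averaged over genotypes. The members have 101 reads or more in every library, so that depth limits Neu4 the most.

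Signs turned only for log2 fold changes near 0. For novelty in controls, the replicate block gave 0.028 for Cspg4, 0.067 for Olig1 and 0.016 for Olig2. In the same comparison, the division by library number as a covariate gave 0.0027 for Cspg4 and 0.022 for Olig1. Upper-quartile scaling gave -0.0036 for Gpr17 there, and no filter 0.0034 for Olig1. Averaged over genotypes, novelty had -0.0014 by DESeq2 and -0.018 by upper-quartile scaling for Cspg4, and -0.014 by upper-quartile scaling and -0.0026 by limma-voom for Neu4. Genotype after novelty was -0.0024 for Cspg4 with the covariate, and the interaction of Sox6 was -0.00031 with no filter. Without 1 library, values ran as follows. Cspg4 had -0.0037 to 0.065 for genotype after novelty, -0.087 to 0.0032 in naive mice and -0.038 to 0.0072 averaged, and for novelty -0.0015 to 0.059 in cKO mice, -0.087 to 0.015 in controls and -0.024 to 0.025 averaged. For novelty in controls Gpr17 had -0.032 to 0.074, Olig1 -0.049 to 0.054, Olig2 -0.090 to 0.010 and Pdgfra -0.0084 to 0.060. Neu4 had -0.080 to 0.0068 for genotype in naive mice and -0.025 to 0.043 for averaged novelty, and Sox6 -0.034 to 0.047 for the interaction. The cause was not tested for any of these.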

Other observations

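Lists of other cell types gave these values for cKO minus control, averaged over exposures, where 12.1% of all genes passed in either direction and 6.01% as lower. Of 10 genes of CA1 pyramidal neurons, in which the Cre is active, 3 fell: Man1a by 0.32, Camk2a, a kinase of synaptic plasticity, by 0.23 and Mpped1 by 0.16 on the log2 scale, with a median of -0.16 over the 10. Of 9 endothelial genes 1 fell (Ly6c1, by 0.27), with all 9 below 0 and a median of -0.155. Of 10 astrocyte genes and 10 microglia genes 0 passed, with medians of -0.033 and 0.066. Of 6 dentate granule genes 1 fell, C1ql2 by 0.85, and of 6 genes of CA2 and CA3 neurons 0 passed, with a median of 0.147. Of 4 measured choroid plexus genes 0 passed, with a sum of at most 32.3 CPM in cKO libraries and 42.6 CPM in control novelty libraries, and up to 109.5 CPM in control naive libraries.

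With novelty, averaged over genotypes, 6.54% of all genes passed in either direction. Of 10 astrocyte genes 1 rose and 1 fell. Gjb6, a gap junction gene, rose by 0.34 (edgeR adjusted p = 0.000117) and Sox9 fell by 0.28 (adjusted p = 0.00139). Of 10 microglial genes 1 rose, Tmem119 by 0.14, and 1 fell, P2ry12 by 0.16, with 8 of the 10 below 0. Of 9 endothelial genes 1 rose, Ly6c1 by 0.23, and 1 fell, the tight junction gene Cldn5, by 0.32. Of 9 genes of pericytes and smooth muscle 1 fell. This was Pdgfrb, the pericyte receptor of the same family as Pdgfra, by 0.20 (adjusted p = 0.0404). Nothing particular to these lists is read from these counts.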
